A study of Mus musculus with 10 samples.

Results

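Gm26880 and AU020206 are 2 mouse genes annotated as long intergenic noncoding RNAs (lincRNAs), and they were taken by symbol from 47311 genes measured in 10 RNA libraries. The pair was chosen by these same measurements, since both were lower in every ASXL2 construct group than in empty vector cells, and their levels against the empty vector are given as a description, with no test. Gm26880 averaged 595 counts per 1000000 counts (CPM) with the empty vector, and between 103 and 145 CPM in the 4 construct groups. AU020206 averaged 70.7 CPM with the empty vector, and between 29.8 and 41.6 CPM in the construct groups.

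The libraries came from mouse bone marrow cells negative for lineage antigens and positive for Kit, the receptor for stem cell factor. All groups were sorted for GFP, expanded in IMDM with fetal bovine serum, IL3, IL6 and SCF, and used for polyA RNA sequencing. The 5 groups of 2 libraries each were the empty vector, over-expressed wild-type (full-length) Asxl2, and over-expressed Mutant1, Mutant2 and Mutant3 of Asxl2. The labels do not say what the mutations are, which vector or promoter carried the constructs, or the strain and age of the mice. They give each group a library of batch 1 and a library of batch 2, without saying whether these were separate cultures or animals. The p-values therefore measure the spread between libraries, which the labels do not trace to animals, cultures or technical repeats.

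A lincRNA is a spliced or unspliced RNA transcribed between protein-coding genes, without a long open reading frame of known function. Many are expressed in few cell types, and some act on the transcription of genes beside them, while for most no role is known. ASXL2 is a chromatin protein that partners the histone H2A deubiquitinase BAP1, and it is needed for normal blood formation in mice.

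The libraries held 52422686 to 79320702 estimated counts, and log2 CPM of library pairs correlated with Pearson's r between 0.975 and 0.991 across genes, which are not independent replicates. Asxl2 itself measured 107 and 111 CPM with the empty vector and 790.2 to 1892 CPM in the 8 construct libraries. Kit (729 to 1050.2 TPM, transcripts per 1000000), Cd34 (198 to 333 TPM) and Gata2 (1053 to 1340 TPM) were present in all libraries, and the lineage antigens Cd3e, Ms4a1 and Ly6g stayed under 1 TPM. Adgre1, a lineage antigen of macrophages, lay between 1.41 and 4.69 TPM. Flt3, a receptor of early progenitors, reached at most 0.0277 TPM. Of the mast cell and basophil genes, the protease genes Cpa3 (19385 to 27096 TPM), Cma1 (9555 to 15983 TPM) and Tpsb2 (7782 to 12531 TPM) and the IgE receptor genes Fcer1a (5759.9 to 8224 TPM) and Ms4a2 (1119 to 2011 TPM) were high. The protease genes Mcpt4 (8.12 to 75.5 TPM) and Mcpt8 (1.66 to 28.3 TPM) were much lower.

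File names and labels disagreed for some mutant libraries. The names of 4 mutant libraries carry another mutant number than their label, and those of 2 of these, Mutant1 replicate 2 and Mutant3 replicate 1, also another batch. Xist, the RNA that coats the inactive X chromosome of female cells, lay between 121 and 164 TPM in the 5 libraries whose file name gives batch 1, and between 0.00532 and 0.0374 TPM in the 5 whose file name gives batch 2. Under the labels, each batch held libraries of both kinds. The 2 file-name batches thus differed in this RNA of female cells, so batch and the sex of the cells cannot be told apart. Groups follow the labels here, the 6 mutant libraries were pooled for the comparisons, and values within file-name batches are given beside them.

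AU020206 (ENSMUSG00000097415) lies on the minus strand of chromosome 7, at 75769038 to 75782099 in GRCm38 (mm10), and has 2 annotated transcripts. The spliced transcript (ENSMUST00000181224) has 3 exons of 48, 132 and 476 bases. The single-exon transcript (ENSMUST00000206358) has 3009 bases, at 75769038 to 75772046, and contains the third exon of the spliced one, at 75769762 to 75770237. The stretch that tells the spliced transcript apart is therefore its exons 1 and 2, shown here from GENCODE M21 because its level rests on them. Capitals mark exon 1 and lower case marks exon 2.
AU020206 spliced transcript, bases 1 to 180: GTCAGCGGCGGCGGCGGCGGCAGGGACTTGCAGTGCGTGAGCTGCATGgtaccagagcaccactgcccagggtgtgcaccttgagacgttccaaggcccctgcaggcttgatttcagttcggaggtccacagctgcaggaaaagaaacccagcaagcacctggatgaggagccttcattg
The RefSeq promoter window of AU020206, chr7:75782071-75782370 on the minus strand of GRCm38.p6, is shown because it is where the spliced transcript begins. It runs from 250 bases before the RefSeq start site to 50 bases after it, and capitals mark those 50 bases. The RefSeq start lies 21 bases upstream of the GENCODE start of the spliced transcript.
AU020206 promoter: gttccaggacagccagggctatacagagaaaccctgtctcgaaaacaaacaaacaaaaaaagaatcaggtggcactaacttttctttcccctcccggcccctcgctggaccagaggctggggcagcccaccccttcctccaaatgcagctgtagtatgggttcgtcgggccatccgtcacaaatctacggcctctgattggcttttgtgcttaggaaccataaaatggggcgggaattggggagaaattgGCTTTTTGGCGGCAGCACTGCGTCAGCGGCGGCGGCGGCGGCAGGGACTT
This window had a GC content of 55.7% and 15 CpG dinucleotides, against medians of 52.7% and 7 over 32851 RefSeq promoters, of which 34.6% held at least 15. Motifs of blood cell transcription factors, none of which contains another, were searched on both strands. The window held no AGATAA, bound by GATA factors, no TGTGGT, bound by RUNX factors, and no CCGGAAG, bound by ETS factors. It also held no CACGTG, an E-box, and no TGANTCA, bound by AP-1. In the order given, these were found in 11.2%, 16.8%, 8.86%, 7.15% and 7.81% of the promoters.

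Gm26880 (ENSMUSG00000096979) lies on the minus strand of chromosome 4, at 146509094 to 146511764 in GRCm38. Its only annotated transcript (ENSMUST00000181610) has 1318 bases in 2 exons, exon 1 of 888 bases at 146510877 to 146511764 and exon 2 of 430 bases at 146509094 to 146509523. It sits in a cluster of zinc finger protein genes, inside the span of 2 other genes. Zfp981, on the plus strand, and Gm26573, a lincRNA on the minus strand, both extend past it on either side, and neither has an exon that overlaps an exon of Gm26880.

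Gm26880 measured 644 and 547 CPM in the empty vector libraries. It measured 122 and 118 CPM with full-length ASXL2. Mutant1 gave 130.3 and 159.7 CPM, Mutant2 98.9 and 107 CPM, and Mutant3 115 and 90.4 CPM. The 2 empty vector libraries stood far above the other 8, and the lower of them was 3.42 times the highest construct library. Behind these values were 34211 and 37458 estimated counts with the empty vector and 5518 to 10075 in the constructs. In bulk libraries such as these, fewer cells that express a gene and less RNA per cell cannot be told apart.

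As group means, Gm26880 stood at 595 ± 69 CPM (SD, n = 2) with the empty vector, at 120.1 ± 2.39 CPM (SD, n = 2) with full-length ASXL2 and at 117 ± 25.1 CPM (SD, n = 6) with the pooled mutants. The full-length mean was 20.2% of the empty vector mean, and the mutant mean was 19.6% of it. The fitted log2 differences from the empty vector were -2.31 for full-length ASXL2 and -2.35 for the pooled mutants. Without the 2 mutant libraries whose batch is in doubt, the latter was -2.49. By TPM, which accounts for length, Gm26880 was the lincRNA at rank 2 of 3548 with the empty vector, at 680.4 TPM, and at rank 7 with full-length ASXL2, at 133 TPM, and rank 8 with the mutants, at 128 TPM.

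AU020206 measured 75.7 and 65.8 CPM with the empty vector, and 38.4 and 44.8 CPM with full-length ASXL2. Mutant1 gave 29.7 and 36.8 CPM, Mutant2 32.1 and 32.6 CPM, and Mutant3 31.6 and 28.0 CPM. Here the libraries formed 3 levels that did not overlap, with the empty vector highest, full-length ASXL2 between, and all 6 mutant libraries lowest. The step from the empty vector to the constructs is what the pair was chosen for. It was found in 4.05% of the 17810 genes tested, and the step from full-length ASXL2 to the mutants in 2.78%. The share of genes with both steps was not computed. The lower empty vector library was 1.47 times the highest construct library, a far smaller gap than for Gm26880.

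The means of AU020206 were 70.7 ± 6.99 CPM (SD, n = 2) with the empty vector, 41.6 ± 4.53 CPM (SD, n = 2) with full-length ASXL2 and 31.8 ± 2.96 CPM (SD, n = 6) with the mutants. These came to 58.8% and 45.0% of the empty vector mean. The fitted log2 differences from the empty vector were -0.77 for full-length ASXL2 and -1.15 for the pooled mutants, and -1.22 for the mutants without the 2 libraries whose batch is in doubt. By TPM AU020206 ranked 21, 33 and 44 among the 3548 lincRNA genes with the empty vector, full-length ASXL2 and the mutants, at 48.7, 28.8 and 20.6 TPM. With the mutants 288 lincRNA genes exceeded 1 TPM, so AU020206 stayed among the more abundant of them.

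**Figure D1:**
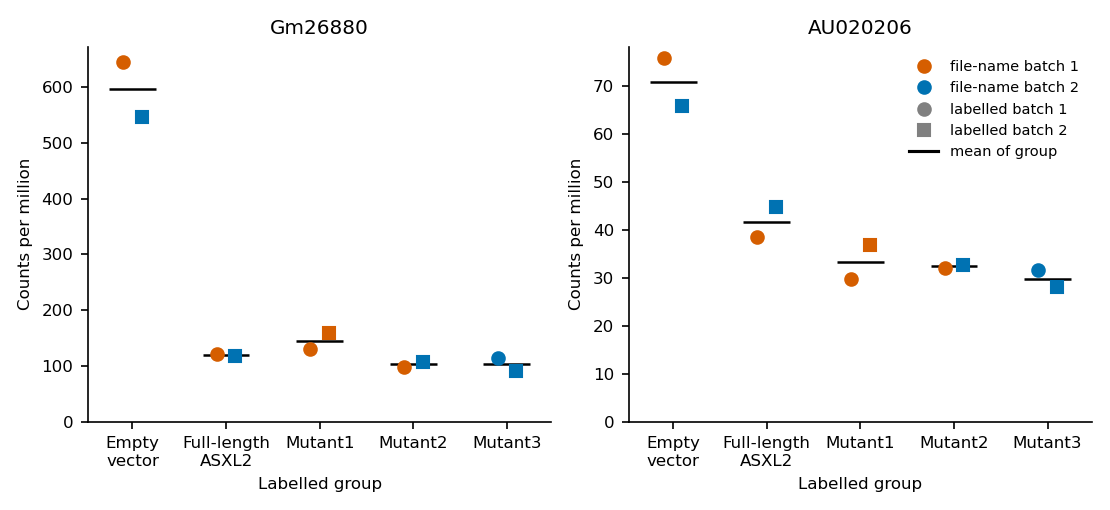
CPM of Gm26880 (left) and AU020206 (right) in each library, by labelled group. Colour gives the batch in the file name, symbol shape the labelled batch, and the line the mean of the group's 2 libraries. For both genes the 2 empty vector libraries lie above all 8 construct libraries.

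As background to these descriptions, 0.752% of 17810 tested genes passed the threshold when full-length ASXL2 was set against the empty vector. The threshold was a Benjamini-Hochberg adjusted p of 0.05 in edgeR's quasi-likelihood fit. Higher genes made up 0.685% and lower genes 0.0674%. For the pooled mutants 1.75% passed, 1.47% higher and 0.275% lower. These shares come from a fit without a batch block. With the file-name batch as a block, edgeR called 903 genes for full-length ASXL2 and 1925 for the mutants. All 8 construct libraries lay below both empty vector libraries for 722 genes, or 4.05%. The choice of the pair used these contrasts, so nothing is read from where Gm26880 and AU020206 stand in them. Both construct contrasts share the same 2 empty vector libraries.

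The libraries by which the pair was chosen were also split by file-name batch, as a description and not as a separate test. In batch 1 of the file names, Gm26880 in the 4 construct libraries stood at 15.4% to 24.8% of the 644 CPM of that batch's empty vector library. In batch 2 it stood at 16.5% to 21.7% of 547 CPM. The mean log2 difference was -2.35 in both batches. AU020206 stood at 39.2% to 50.8% of 75.7 CPM in batch 1 and at 42.6% to 68.1% of 65.8 CPM in batch 2, with mean log2 differences of -1.15 and -0.96. The upper end of the second range was the full-length library, at 68.1%, and the 3 mutant libraries of that batch lay between 42.6% and 49.6%. Each batch has a single empty vector library, so these differences carry no error of their own.

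**Figure D2:**
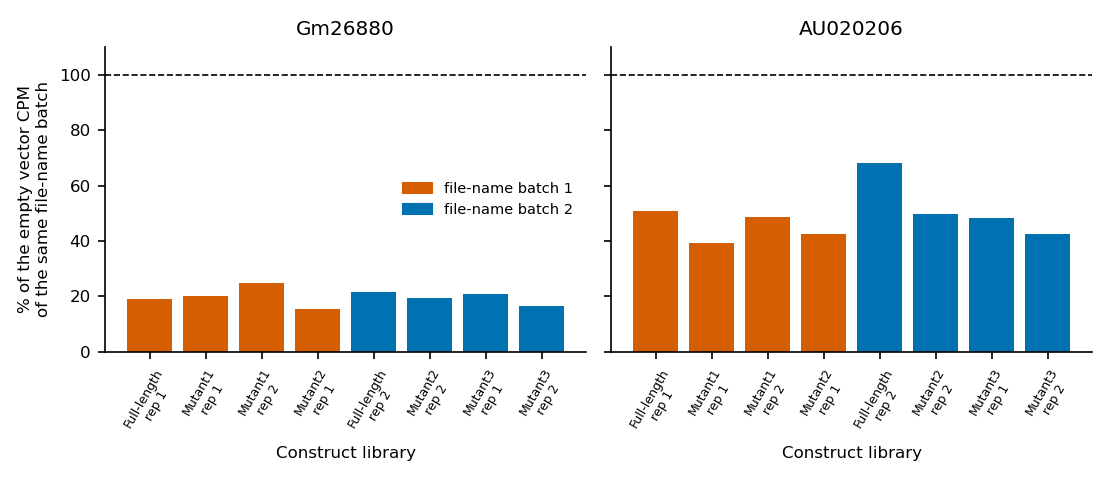
CPM of Gm26880 (left) and AU020206 (right) in each construct library as a percentage of the empty vector library of the same file-name batch, marked by the dashed line at 100%. All bars for Gm26880 lie between 15.4% and 24.8%, and those for AU020206 between 39.2% and 68.1%.

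Mutant ASXL2 was then compared with full-length ASXL2, a contrast that the choice of the pair did not use. For Gm26880 the pooled mutants differed from full-length ASXL2 by a log2 value of -0.04 (SE 0.19), and edgeR's adjusted p was 1. The mutant libraries lay on both sides of the 2 full-length libraries, with the 2 of Mutant1 above them and the other 4 below. AU020206 was lower in all 6 mutant libraries than in both full-length libraries, by a log2 value of -0.39 (SE 0.11). Its unadjusted p was 0.00456, and the edgeR p adjusted over all genes was 0.716, so the difference did not pass the threshold. Across settings the adjusted p for AU020206 ran from 0.130, with DESeq2, to 1. All 6 mutant libraries lay below both full-length libraries for 496 of the 17810 genes, or 2.78%.

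In this contrast 0 genes, or 0.0%, passed edgeR's threshold, with 720 at an unadjusted p under 0.05. DESeq2 called 78 genes. With the labelled batch as a replicate block edgeR called 1 gene, and with the file-name batch as the block it called 71.

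The 3 labelled mutants were compared among themselves. For Gm26880 the largest gap between their means was 0.50 on the log2 scale, with Mutant1 highest at 145 ± 20.8 CPM (SD, n = 2) and Mutant2 and Mutant3 both at 103 CPM, with SDs of 5.36 and 17.4 CPM. The F test of edgeR over the 5 groups gave an unadjusted p of 0.0138 and an adjusted p of 0.681. For AU020206 the gap was 0.16, with means of 33.2, 32.3 and 29.8 CPM and an adjusted p of 0.802 in the same edgeR test. No gene (0.0%) passed in this test, with 757 at an unadjusted p under 0.05, and DESeq2 called 33. These comparisons rest on labels that the names of 4 of the 6 files contradict. By file name, both Mutant1 libraries belong to batch 1 and both Mutant3 libraries to batch 2. A difference between these mutants therefore cannot be told apart from one between the file-name batches. With the file-name batch as a block, the gap for Gm26880 was 0.47, with an adjusted p of 0.999 in edgeR's F test.

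The level of Asxl2 differed among the construct libraries, and its order is given beside that of the pair. Mutant1 replicate 2 had the highest Asxl2, at 1892 CPM, and the highest Gm26880, at 159.7 CPM, while Mutant3 replicate 2 had the lowest of both, at 790.2 and 90.4 CPM. For AU020206 the highest construct library was full-length replicate 2, at 44.8 CPM, where Asxl2 ranked 5 of 8. The lowest was again Mutant3 replicate 2, at 28.0 CPM. The part of the construct's level in these differences was not tested.

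Batch was compared in a fit that kept the 3 classes of empty vector, full-length ASXL2 and mutants. By labelled batch, Gm26880 differed by a log2 value of -0.03 (SE 0.15) between batch 2 and batch 1, with an edgeR adjusted p of 0.933. AU020206 differed by 0.04 (SE 0.09), with an edgeR adjusted p of 0.804. By file-name batch the values were -0.25 for Gm26880, with an adjusted p of 0.147 in edgeR, and -0.05 for AU020206, with an adjusted p of 0.587. The constructs alone averaged 128 ± 25.1 CPM (SD, n = 4) of Gm26880 in file-name batch 1 and 108 ± 12.5 CPM (SD, n = 4) in batch 2. For AU020206 they averaged 34.2 ± 4.05 and 34.3 ± 7.30 CPM (SD, n = 4 each). Over all genes, edgeR called 0 (0.0%) between the labelled batches, with 1555 at an unadjusted p under 0.05 and 5 by DESeq2. Between the file-name batches it called 9338 of the 17810 genes tested. Neither of the pair was among those 9338 genes, and many other tested genes were not either.

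Both transcripts of AU020206 were measured in every library. The spliced transcript stood at 21.1 and 17.7 TPM with the empty vector, and at 9.92 and 14.5 TPM with full-length ASXL2. Its lowest, median and highest mutant libraries stood at 6.88, 8.04 and 8.72 TPM. The single-exon transcript stood at 33.4 and 25.2 TPM with the empty vector, at 15.2 and 18.1 TPM with full-length ASXL2, and at 10.5, 12.3 and 15.9 TPM as the lowest, median and highest mutant library. For each transcript all 8 construct libraries lay below both empty vector libraries. Mutant and full-length libraries overlapped for the single-exon transcript, where the highest mutant library, at 15.9 TPM, exceeded a full-length library at 15.2 TPM.

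In the mutants the spliced transcript had a mean of 41.2% and the single-exon transcript of 42.9% of the empty vector mean, and with full-length ASXL2 these were 63.0% and 56.7%. The spliced transcript made up 38.7% to 41.2% of the gene's TPM with the empty vector, 39.5% to 44.5% with full-length ASXL2 and 35.0% to 43.1% with the mutants, so the ranges overlapped. The single-exon transcript held 88.0% to 91.6% of the gene's estimated counts, since it is the longer. Of the 626 windows of 31 bases in the spliced transcript, 447 (71.4%) also occur in the single-exon transcript, and the others come from exons 1 and 2 printed earlier and the junctions. The same 447 windows are 15.0% of those of the single-exon transcript, most of whose sequence is its own.

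**Figure D3:**
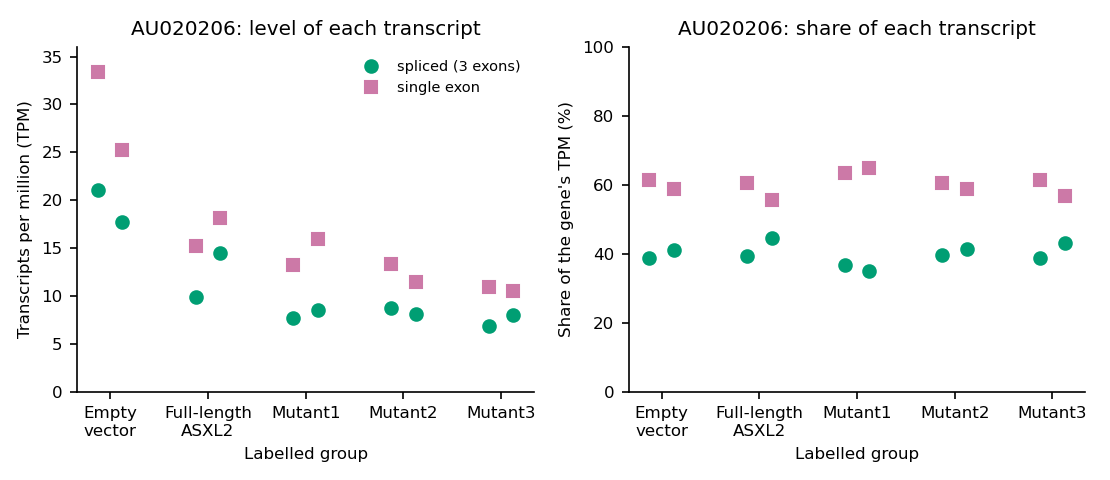
TPM of the spliced and the single-exon transcript of AU020206 in each library (left) and the share of the gene's TPM that each transcript held (right), by labelled group. Levels of both were highest with the empty vector, while the share of the spliced transcript stayed between 35.0% and 44.5%.

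Far more of the sequence of Gm26880 than of AU020206 is shared with other genes. Kallisto assigns reads through short windows of sequence, and windows of 31 bases were therefore compared, on both strands, over all transcripts of the deposited tables that have a sequence in GENCODE M21. Of the 1288 windows of Gm26880, 830 (64.4%) occur in transcripts of 10 other genes. In exon 1, 619 of 858 windows were shared (72.1%), in exon 2, 211 of 400 (52.8%), and of the 30 windows across the junction none (0.0%). The single-exon AU020206 transcript shared 2 of 2979 windows (0.0671%), with transcripts of Fn1 and Top2a, and the spliced one shared none of its windows with another gene.

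The estimate for Gm26880 divides shared reads with these transcripts and is uncertain for that reason. The labels do not name the vector that carried the constructs, and its sequence was not analysed here, so whether it shares windows with Gm26880 was not tested.

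The 10 sharing transcripts differed among themselves. The transcript of Gm43305 that shares sequence, which holds 521 of the windows on the opposite strand, stood at 221 and 155 TPM with the empty vector and at 73.6 and 91.1 TPM with full-length ASXL2. In the mutants its lowest, median and highest values were 67.7, 84.1 and 109 TPM. All 8 construct libraries thus lay below both empty vector libraries, at 0.438 and 0.453 times the empty vector mean in the 2 classes. A Miga1 transcript (ENSMUST00000199397), from a gene for a mitochondrial fusion protein and with 106 shared windows on the same strand, stood at 77.5 and 60.8 TPM with the empty vector and at 39.4 and 54.8 TPM with full-length ASXL2. Its mutant libraries had a lowest, median and highest value of 29.3, 36.9 and 45.9 TPM, again all below the empty vector.

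The other sharing transcripts overlapped between empty vector and construct libraries. The Gm42427 transcript, with 254 windows, averaged 169 TPM with the empty vector, 192 TPM with full-length ASXL2 and 159 TPM with the mutants. The Gm37416 transcript, with 10 windows, averaged 176, 244 and 187 TPM. A transcript of the lincRNA AI506816, with 362 windows, averaged 180.1, 133 and 123 TPM, and 7 of its 8 construct libraries lay below both empty vector libraries. The Gm42429 transcript was listed at 0 in all libraries. Of the 10, 6 had a lower mean than the empty vector in both classes, and in 2 of them all constructs lay below.

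Summed, the other 10 transcripts stood at 938 ± 34.2 TPM (SD, n = 2) with the empty vector, 823 ± 219 TPM (SD, n = 2) with full-length ASXL2 and 719 ± 78.6 TPM (SD, n = 6) with the mutants. These were 87.7% and 76.6% of the empty vector sum, against 19.6% and 18.8% for Gm26880 in TPM. Gm26880 therefore made up 41.8% of the joint sum in empty vector cells, 14.3% in full-length cells and 15.2% in mutant cells. When Gm26880 was replaced by the joint sum in the fit, the log2 difference from the empty vector was -0.61 for full-length ASXL2 and -0.70 for the mutants, in place of -2.31 and -2.35.

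**Figure D4:**
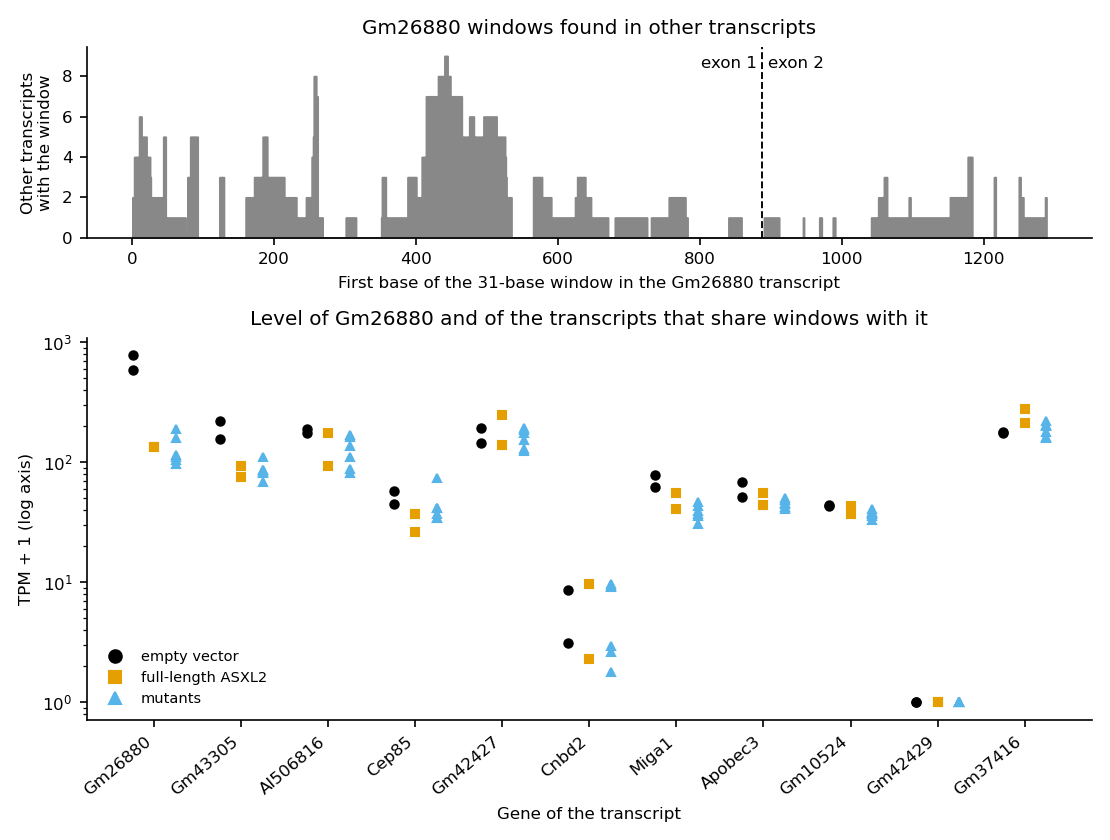
Top, number of other transcripts that hold each 31-base window of the Gm26880 transcript, by the position of its first base, with the exon boundary dashed. Bottom, TPM + 1 on a log axis of Gm26880 and the 10 sharing transcripts in each library. At most 9 transcripts share a window in exon 1 and at most 4 in exon 2, and the empty vector stands furthest from the constructs for Gm26880.

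The genes around the pair were tested against the empty vector over all genes. Within 500 kb of Gm26880, 28 genes are annotated and 11 passed the filter on low counts. Within 500 kb of AU020206 there are 18, of which 4 passed. Of these 15 tested neighbours 0 passed edgeR's threshold, for full-length ASXL2 or for the mutants, beside 0.752% and 1.75% of all genes. At an unadjusted p under 0.05 there were 1 and 2, and DESeq2 called 0. The counts over all 17810 genes were 1477 and 2021 at that unadjusted p in edgeR, and 560 and 915 in DESeq2. The median log2 difference from the empty vector over the 11 neighbours of Gm26880 was -0.21 for full-length ASXL2 and -0.07 for the mutants. Over the 4 neighbours of AU020206 it was -0.11 and -0.20. Over all genes tested the medians were -0.01 and 0.00.

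Zfp981, which spans Gm26880 on the other strand, averaged 0.241 CPM with the empty vector, 0.189 CPM with full-length ASXL2 and 0.229 CPM with the mutants, far below Gm26880. Gm26573, the lincRNA around it, averaged 0.141, 0.136 and 0.184 CPM. The annotated genes nearest on either side are the pseudogene Gm13245, at 0.975, 0.986 and 1.01 CPM, and the antisense RNA 1700095A21Rik, which was too low to test. The nearest tested gene on the far side was the pseudogene Gm13237, 52.7 kb away, at 0.314, 0.407 and 0.567 CPM. These genes were low in every group.

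Zfp992, a zinc finger gene 38.8 kb away and the most abundant of the tested neighbours of Gm26880, stood at 40.4 and 42.4 CPM with the empty vector and 31.7 and 39.7 CPM with full-length ASXL2. Its mutant libraries ran from 31.7 through a median of 34.8 to 39.0 CPM. All 8 construct libraries lay below both empty vector libraries, but the log2 differences were -0.21 (SE 0.13) and -0.24 (SE 0.10), and edgeR's adjusted p was 0.832 and 0.396. Zfp993, 99.2 kb away on the other side, averaged 6.66, 6.43 and 6.57 CPM.

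Beside AU020206, the nearest tested gene was Akap13, 14.4 kb away, which codes for an anchoring protein for protein kinase A. Akap13 stood at 167 and 259 CPM with the empty vector and at 166 and 260.5 CPM with full-length ASXL2. Its mutant libraries ran from 134 through a median of 165 to 206 CPM. The log2 difference of Akap13 was 0.00 (SE 0.27) for full-length ASXL2, with an edgeR adjusted p of 1, and -0.36 (SE 0.21) for the mutants, with an edgeR adjusted p of 0.638. With the file-name batch as a block, the latter was -0.34 (SE 0.09) with an edgeR adjusted p of 0.0439, which passed. Akap13 was the single neighbour called under any setting run.

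Klhl25, a gene for an adaptor of a ubiquitin ligase 66.2 kb away on the other side, stood at 26.1 and 27.9 CPM with the empty vector and 22.9 and 23.5 CPM with full-length ASXL2. Its mutant libraries ran from 23.5 through a median of 24.4 to 25 CPM. All 8 construct libraries lay below both empty vector libraries, by log2 values of -0.22 (SE 0.08) and -0.15 (SE 0.07), and edgeR's adjusted p was 0.426 and 0.403. With Zfp992 this made 2 of the 15 neighbours with all constructs below the empty vector, beside 4.05% of all genes. The annotated genes nearest to AU020206 itself, the microRNA gene Gm23251 and the pseudogene Gm26729, were listed at 0 in all libraries.

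**Figure D5:**
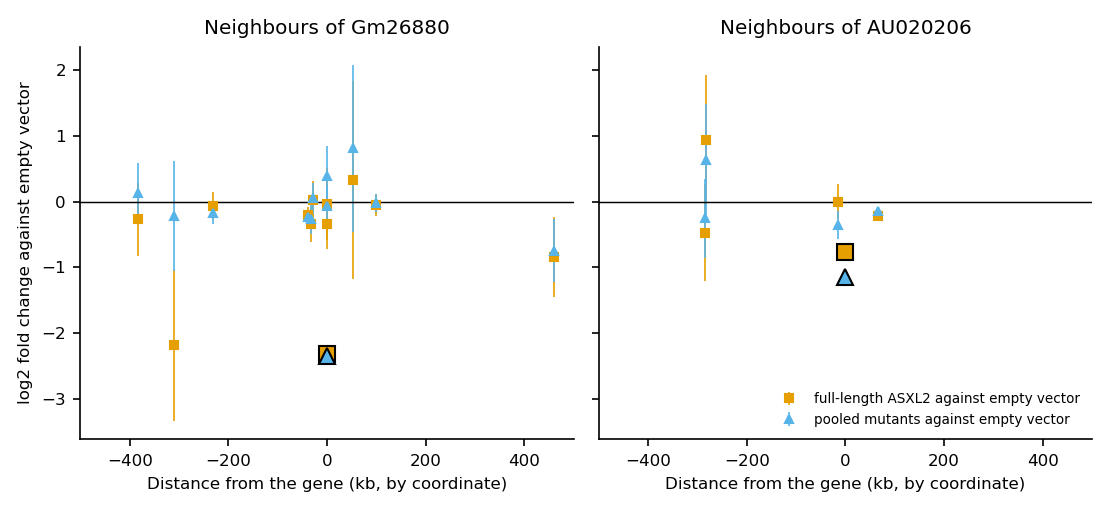
Log2 fold change against the empty vector of tested genes within 500 kb of Gm26880 (left) and AU020206 (right), by distance along the chromosome, with the standard error as bars. Large outlined symbols at 0 are Gm26880 and AU020206 themselves. No neighbour passed the threshold, and the lowest, Zfp600 at -2.18 for full-length ASXL2, rests on 0.336 CPM with the empty vector and has an SE of 1.16.

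Other long noncoding RNAs are given for comparison. Of the 813 other lincRNA genes tested, edgeR called 0 (22 at an unadjusted p under 0.05) when full-length ASXL2 was set against the empty vector, beside 0.752% of all genes. For the mutants it called 0 higher and 2 lower (31 at an unadjusted p under 0.05), beside 1.75% of all genes. DESeq2 called 5 and 7 of the 813 in the 2 contrasts, beside 560 and 915 of all 17810 genes. At an unadjusted p under 0.05 in edgeR, all genes gave 1477 and 2021. The 2 that edgeR called were named after their values were seen. Gm37233 on chromosome 1 stood at 44.8 ± 3.32 CPM (SD, n = 2) with the empty vector and 29.8 ± 3.66 CPM (SD, n = 6) with the mutants, a log2 difference of -0.59 (SE 0.12) with an edgeR adjusted p of 0.0459. Gm30648 on chromosome 3 stood at 16.2 ± 0.631 CPM (SD, n = 2) and 11.2 ± 0.769 CPM (SD, n = 6), a difference of -0.53 (SE 0.09) with an edgeR adjusted p of 0.0218.

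From a list of 46 known long noncoding RNAs, 41 were in the tables and 38 were tested. In either contrast with the empty vector 0 passed edgeR's threshold, beside 0.752% and 1.75% of all genes. With shares that small, a list of 38 is too short to tell it apart from all genes. There were 3 and 6 at an unadjusted p under 0.05 in edgeR, and DESeq2 called 1 and 2. Over all 17810 genes the counts were 1477 and 2021 in edgeR, and 560 and 915 in DESeq2. The median log2 difference of the list was -0.20 for full-length ASXL2 and -0.06 for the mutants, beside -0.01 and 0.00 over all genes. The 4 highest in TPM were Neat1, the scaffold of nuclear paraspeckles, Gas5 and Mir142hg, which host small RNAs, and Xist. Neat1 averaged 971 ± 659 TPM (SD, n = 2) with the empty vector and 1033 ± 893 TPM (SD, n = 2) with full-length ASXL2, with its libraries spread from 366 to 2417 TPM. Gas5 averaged 369.9 ± 97.7 TPM and 289 ± 58.8 TPM in the same 2 groups. Mir142hg averaged 201 ± 104 and 157 ± 58.5 TPM. For these 3 the SD within the empty vector group was larger than the gap between the 2 means. Both groups hold a library of each file-name batch, so this SD includes any difference between the batches.

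Genes with the profile most like each of the pair over the 10 libraries were found among 12333 genes with a mean of at least 1 CPM, by the root mean square (RMS) difference of centred log2 CPM. This is a description, in which all genes share the libraries. The profiles include the difference from the empty vector by which the pair was chosen. For Gm26880 the closest were S1pr3 (RMS 0.42), a receptor for sphingosine 1-phosphate, Entpd1 (0.43), an enzyme that degrades extracellular ATP, and the T cell receptor segment Trav6-3 (0.49). Gfi1 (0.50), a transcriptional repressor of blood cells, and Tnfrsf9 (0.52), a costimulatory receptor, followed. AU020206 ranked 8 at 0.56, and the median gene was at 0.98. Entpd1, the most abundant of these, averaged 53.9 CPM with the empty vector, 20.5 CPM with full-length ASXL2 and 17 CPM with the mutants.

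For AU020206 the closest profiles were Pced1b (RMS 0.15), Sema4b (0.21), which codes for a semaphorin, 4932438H23Rik (0.22), Miga1 (0.22) and Tnfsf4 (0.23), the ligand of a costimulatory receptor. Pced1b averaged 3.09 CPM with the empty vector, 1.55 CPM with full-length ASXL2 and 1.31 CPM with the mutants. Miga1 averaged 157, 115 and 98.1 CPM, and is the gene of which a transcript shares windows with Gm26880. Seen from AU020206, Gm26880 ranked 9270 of 12333, at the same RMS of 0.56, while the median gene was at 0.49. The order of empty vector above constructs is what the 2 lincRNAs were chosen for, and the size of the difference was not the same in both.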

How the data were processed

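PolyA RNA of 10 libraries was quantified with kallisto, per the submitters' processing notes, which also name DESeq2 and mm10; no version is given in the sources used here. The deposited tables give estimated counts and TPM, which the authors computed per transcript, for 115088 transcripts. TPM accounts for transcript length and library depth; whether strand was used is not given either. Of these, 114200 (99.2%) matched GENCODE M21 and were summed to 47311 genes, and the other 888 were left out.

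Counts were rounded, scaled by TMM and fitted with edgeR 4.0.16 (R 4.3.3, robust quasi-likelihood, filterByExpr with a minimum count of 10, which left 17810 genes) on 3 classes, with Benjamini-Hochberg adjustment over all genes and a threshold of 0.05. CPM uses TMM library sizes. Class contrasts used no block; the batch comparison added batch to the classes, and the comparison among mutants used the 5 labelled groups. Alternatives used DESeq2 1.42.0, limma 3.58.1 on log2(TPM + 1) and log2(TPM + 0.1), other scaling and filters, batch as a block, and libraries left out. The replicate number pairs libraries because the labels call it a batch; deviations of same-numbered libraries correlated at -0.145 to 0.578 over 10 pairs of groups, 3 of them over 0.1. The edgeR script was tested on simulated data.

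Named genes were the pair and their transcripts, genes overlapping or nearest to them, Asxl2, the 5 most like profiles, and of the list of known long noncoding RNAs those past the threshold and the 4 highest in TPM; Klhl25 falls under nearest genes, Zfp993 and Zfp600 were added. The pair, lists and tests were chosen with earlier results of these data known. Members were matched by symbol, the promoter came from RefSeq (GRCm38.p6), and no promoter is printed for Gm26880.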

Additional observations from a re-analysis of the deposited data

How the results depend on the processing

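Settings left out a library, changed the scaling, filter or tool, or added batch as a replicate block. They kept the sign of both genes' differences from the empty vector and moved them by less than 1 SD between libraries. The pair was chosen by these differences, so this is a description and no separate evidence for them. Summing Gm26880 with the transcripts that share its windows, chosen after seeing the data, moved it to -0.61 for full-length ASXL2 and -0.70 for the mutants, and turned its labelled batch difference to 0.21. Leaving out 1 library in turn gave log2 values for Gm26880 of -0.15 to 0.02 for mutants against full-length ASXL2 and -0.18 to 0.05 for batch, and for AU020206 -0.02 to 0.12 for batch; with the file-name batch the latter was -0.05. None of these mutant or batch differences passed the threshold in any setting run.

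Counts of genes called depended on the setting, and the cause was not tested. With full-length ASXL2 set against the empty vector, 134 genes became 560 with DESeq2, 14 and 23 with limma on log2(TPM + 1) and log2(TPM + 0.1), 903 with the file-name batch as a replicate block, 129 with the labelled batch as a replicate block, 37 without both libraries of doubtful batch (chosen after seeing the data), and 0 to 86 without 1 library, the lowest without empty vector replicate 2 (0), empty vector replicate 1 (4) and full-length replicate 2 (9). For the mutants against the empty vector, 311 became 915, 69, 94, 1925, 335, 162 and 17 to 271, the lowest without empty vector replicate 2 (17) and 1 (28). Mutants against full-length ASXL2 gave 0, then 78 with DESeq2, 1 and 71 with the labelled and file-name batch as a replicate block, and 0 to 1 without 1 library. Labelled batch gave 0, then 5 with DESeq2, 8242 without both doubtful libraries, 9338 by file-name batch and 0 to 2245 without 1 library, the highest without Mutant1 replicate 2. The labelled mutants gave 0, then 33 with DESeq2, 2 with no filter on low counts and 1 with each limma fit. Neighbours called went from 0 to 1, Akap13, only with the file-name batch as a replicate block. The 2 libraries per group limit all comparisons.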
